A study of Mus musculus with 6 samples.

Results

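The Myc network and the D-type cyclins were examined in the lacrimal gland epithelium of mouse embryos as 9 genes chosen by symbol: Myc and Mycn, their partner Max, the antagonists Mxd1, Mxd4 and Mxi1, and the cyclins Ccnd1, Ccnd2 and Ccnd3. All 9 were present among 23420 gene symbols, and all 9 were among the 13087 genes that passed a filter on low counts and were tested. RNA-seq counts covered 3 Control and 3 Pea3 TKO samples of epithelium taken by laser capture from frozen E14.5 embryos, all on a mixed background. Control embryos carried Le-Cre, a transgene that drives Cre recombinase in the ocular surface epithelium and the lacrimal gland bud. Pea3 TKO embryos carried the same Le-Cre with Pea3-/-, Erm fl/fl and Er81 fl/fl, so that Pea3 (Etv4) was deleted in every tissue while Erm (Etv5) and Er81 (Etv1) were deleted where Le-Cre acts. The comparison asked how the loss of these ETS transcription factors, which act downstream of FGF signaling, altered gene expression in the gland bud. Nothing in the labels states that the 3 samples of a group came from separate embryos, so p-values measure the spread between these samples, part of which may be technical.

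MYC and MYCN are transcription factors that bind DNA as heterodimers with MAX and activate genes of ribosome biogenesis, translation, nucleotide synthesis and amino acid transport. MXD proteins and MXI1 also pair with MAX, occupy the same E-box sequences and repress them through SIN3 and histone deacetylases. D-type cyclins activate CDK4 and CDK6 in response to growth factors, and the resulting phosphorylation of RB releases E2F factors for entry into S phase. In branching glands, growth of the epithelial bud depends on FGF signaling through the MAPK cascade, to which both MYC and cyclin D1 are known to respond.

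Of the 9 members, 5 were higher (Mycn, Mxd1, Mxi1, Ccnd1 and Ccnd3) and 1 was lower (Myc) in Pea3 TKO at an adjusted p under 0.05, while Max, Mxd4 and Ccnd2 did not pass. Among all genes tested, 25% passed in either direction, 13.6% as higher and 11.3% as lower. The same 6 members had groups that did not overlap, against 43.9% of all genes tested. The median log2 fold change over all genes tested was 0.0094.

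**Figure D1:**
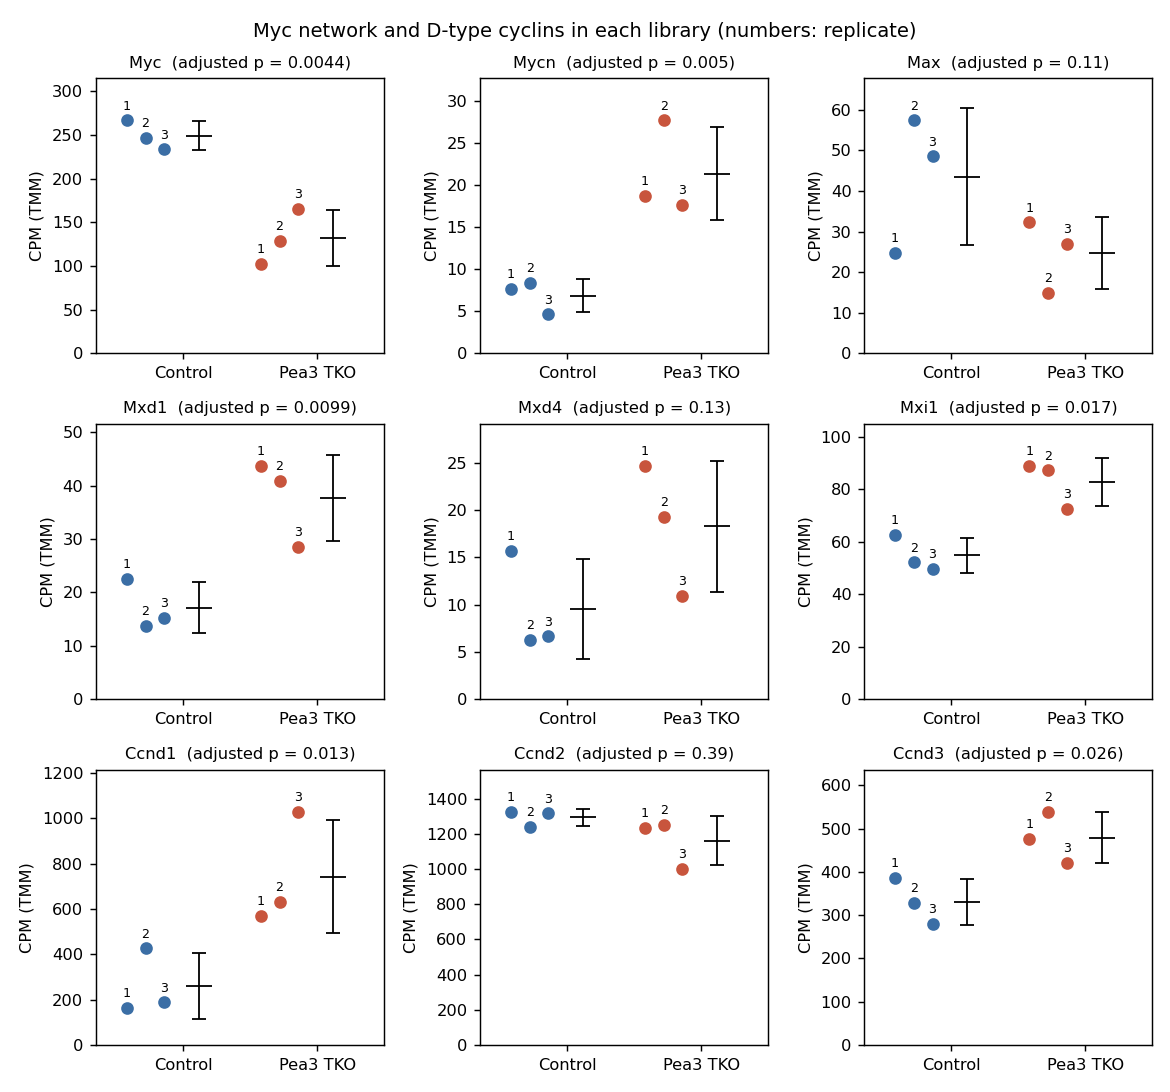
Level of each of the 9 genes in every library, in CPM, counts scaled to library size by TMM (linear axis from 0), with Control in blue, Pea3 TKO in red, the replicate number above each point, and the mean ± SD (n = 3) as a black bar beside the points. Myc is the 1 gene with all Pea3 TKO points below all Control points, while the ranges of Max, Mxd4 and Ccnd2 overlap.

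The targeted genes were checked first. Etv5 was at 961, 1010 and 1202 CPM in Control and at 88.2, 152 and 177 CPM in Pea3 TKO. Etv4 was at 129 to 184 CPM in Control against 10.9 to 28.4 CPM, and Etv1 at 28.7 to 33.9 CPM against 9.21 to 9.98 CPM. All 3 genes were lower in Pea3 TKO (log2 fold changes of −2.93, −2.95 and −1.74), as the labels require, and none of the Pea3 TKO libraries was free of these transcripts.

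The 6 libraries held 14194775 to 17860140 counts, so that 3 counts corresponded to 0.168 to 0.211 CPM. Pea3 TKO samples 1 and 2 stood apart from the other 4 libraries in Y-linked transcripts: the summed level of Ddx3y, Eif2s3y, Kdm5d and Uty was 0.445 and 0.21 CPM there and 136 to 175 CPM elsewhere, so these 2 libraries and Pea3 TKO sample 3 cannot all come from 1 embryo. The same 2 libraries had the highest mesenchymal marker sums (705 and 882 CPM over 13 genes), whereas Pea3 TKO sample 3 (279 CPM) lay within the Control range of 240 to 321 CPM. Foxc1 made up most of the sum in 4 of these libraries, Control sample 3 included, at 184 to 229 CPM in Control and 259 to 279 CPM in Pea3 TKO. Without Foxc1 the other 12 genes summed to 22.4, 37.9 and 137 CPM in Control and to 434, 603 and 19.7 CPM in Pea3 TKO, so that sample 3 was then below every Control sample. Pan-epithelial markers were present in every library, with sums over 8 genes of 3139 to 3910 CPM in Control and 5438 to 6467 CPM in Pea3 TKO. Surface epithelium markers were higher in Pea3 TKO, with sums over 10 genes of 6182 to 8321 CPM against 1073 to 2232 CPM and 9 of the 10 genes past the test. The sum of 6 ocular and lacrimal markers was 1162 to 1307 CPM against 1534 to 1730 CPM, but the genes were split. Of the 6, 4 were lower and Pax6 and Fgfr2 were higher. The Pax6 means were 210 CPM in Control and 451 CPM in Pea3 TKO (log2 fold change 1.10). For Fgfr2 the means were 243 and 354 CPM (0.54), and the groups overlapped. Fgfr2 in Pea3 TKO sample 3 (257.9 CPM) lay within the Control range of 234.2 to 258.6 CPM. Endothelial markers summed to at most 7.76 CPM, with Cdh5, Tie1 and Emcn under 3 counts in every sample, and muscle markers to at most 3.99 CPM. Blood markers spanned 46.9 to 197 CPM and 54.6 to 381 CPM, macrophage markers 0.187 to 24.5 CPM and 1.64 to 23.2 CPM, and glial and melanocyte markers 26.6 to 31.1 CPM and 17.1 to 30.6 CPM in Control and Pea3 TKO. The part that these differences in marker and Y-linked transcripts played in the results below was not tested, and in bulk samples fewer cells of a type and less RNA per cell cannot be told apart.

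Myc, the founding activator of the network, fell in Pea3 TKO. Its levels were 267, 247 and 234 CPM in Control and 102, 128 and 166 CPM in Pea3 TKO, and the groups did not overlap. The mean went from 249 ± 16.7 to 132 ± 32.0 CPM (SD, n = 3 each), a log2 fold change of −0.92 ± 0.17 (SE), or 1.89-fold lower (edgeR quasi-likelihood test, Benjamini-Hochberg adjusted p = 0.0044). The Pea3 TKO samples were more spread than the Control samples, and sample 3 lay nearest to Control. With Pea3 TKO samples 1 and 2 left out the estimate was −0.58 (adjusted p = 0.077), resting on 1 Pea3 TKO library that was assumed to vary like the others. Myc lies on chr15:61985391-61990374 of GRCm38, on the plus strand.

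Mycn, a paralog of Myc with the same partner and DNA site and best known from neural and early epithelial progenitors, changed in the opposite direction. Mycn was at 7.61, 8.35 and 4.62 CPM in Control and at 18.7, 27.7 and 17.6 CPM in Pea3 TKO. Every Pea3 TKO sample was above every Control sample. The log2 fold change was 1.63 ± 0.31 (SE), 3.10-fold higher on average with a 95% interval of 1.93 to 4.999, and the adjusted p was 0.0050 by the same test. Without Pea3 TKO samples 1 and 2 it was 1.37 (adjusted p = 0.13). The calls for Myc and Mycn remained when any 1 of the 6 libraries was left out.

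The Mycn promoter (RefSeq gene start, GRCm38.p6) is shown because the 250 bases upstream of its start held 3 matches to E2F sequences, searched as TTTCGCGC or TTTGGCGC on both strands. Such a match was present in 0.655% of 32851 promoter windows of the same length, and in 1.26% of the 12505 windows of tested genes. The stretch is chr12:12941971-12942045 on the minus strand, written 5′ to 3′ along the gene with the matches in capitals. The leftmost pair of matches overlap each other, and they begin 183, 179 and 168 bases before the start site.
Mycn: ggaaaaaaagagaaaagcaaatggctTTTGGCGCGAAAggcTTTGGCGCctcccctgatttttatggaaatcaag
A match describes the letters of the window and was not tested for binding. Promoter sequence was available for 6 of the 9 members, namely those other than Myc, Ccnd1 and Ccnd2.

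Max, the obligate partner of both activators and antagonists, gave no call. Its levels were 24.7, 57.4 and 48.5 CPM in Control and 32.3, 14.96 and 27.0 CPM in Pea3 TKO, and the ranges overlapped because Control sample 1 was low. The log2 fold change was −0.81 ± 0.34 (SE, 95% interval −1.57 to −0.05, adjusted p = 0.11). Leaving out Control sample 1 moved it to −1.10 (adjusted p = 0.019).

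The antagonists Mxd1 and Mxi1 rose. Mxd1 (also called Mad1), associated with cells that leave the cycle and differentiate, was at 22.5, 13.6 and 15.3 CPM in Control and at 43.6, 40.9 and 28.5 CPM in Pea3 TKO, with no overlap. The mean was 2.20-fold higher (log2 fold change 1.13 ± 0.25, adjusted p = 0.0099), and the call remained with any 1 library left out. Without Pea3 TKO samples 1 and 2 the log2 fold change was 0.75 (adjusted p = 0.26).

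Mxi1, another MAX-binding repressor, was at 62.5, 52.1 and 49.7 CPM in Control and at 88.8, 87.1 and 72.4 CPM in Pea3 TKO. These groups also did not overlap, and the mean was 1.51-fold higher (log2 fold change 0.60 ± 0.15, adjusted p = 0.017). The Mxi1 call was lost when 1 of 4 libraries was left out: adjusted p was 0.069 or 0.070 without Control sample 2 or 3 and 0.055 or 0.056 without Pea3 TKO sample 1 or 2. With both of these Pea3 TKO samples left out the log2 fold change was 0.41 (adjusted p = 0.29).

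Mxd4, the antagonist with the lowest level, was at 15.7, 6.29 and 6.63 CPM in Control and at 24.6, 19.3 and 10.9 CPM in Pea3 TKO. Control sample 1 lay above Pea3 TKO sample 3. The log2 fold change of 0.94 ± 0.42 (95% interval 0.0037 to 1.87) did not pass (adjusted p = 0.13). Without Control sample 1 it was 1.497 (adjusted p = 0.016), and without Pea3 TKO samples 1 and 2 it was 0.21 (adjusted p = 0.88). Mxd4 was the 1 member of those 6 whose promoter window held an E-box, CACGTG, the palindromic site of MAX heterodimers. It was present in 6.02% of all windows and in 8.32% of those of tested genes. Counted by gene, 10.1% of the 9732 tested genes with a promoter held one, against 16.7% of the 6 members. The stretch, chr5:34187897-34187956 on the minus strand, is given with the E-box in capitals, 219 bases before the start site.
Mxd4: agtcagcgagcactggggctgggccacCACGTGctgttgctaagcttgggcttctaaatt

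Among the D-type cyclins, Ccnd1 rose most. Ccnd1, the cyclin D that responds most directly to growth factor signaling in many cell types, was at 164, 426 and 188 CPM in Control and at 571, 630.1 and 1028 CPM in Pea3 TKO. The groups did not overlap, but both were widely spread, at 259 ± 145 and 743 ± 249 CPM (SD, n = 3 each). The mean was 2.87-fold higher, with a 95% interval of 1.66 to 4.96 (log2 fold change 1.52 ± 0.35, adjusted p = 0.013). Ccnd1 differed most in Pea3 TKO sample 3: without Pea3 TKO samples 1 and 2 the log2 fold change was 1.998 (adjusted p = 0.066). Leaving out Control sample 3 gave 1.33 with an adjusted p of 0.051, and the call remained without any other single library.

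Ccnd2, the most abundant D-type cyclin of the Control bud, did not pass. It was at 1325, 1239 and 1316 CPM in Control and at 1233, 1253 and 1000.1 CPM in Pea3 TKO. The ranges overlapped, with Pea3 TKO sample 3 the lowest. The log2 fold change was −0.15 ± 0.12, and its 95% interval of −0.43 to 0.12 bounds the change on either side. This was the smallest estimate among the 9 members.

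Ccnd3, the cyclin D most often linked to differentiating cells, was at 386, 328 and 280.1 CPM in Control and at 477, 539 and 421 CPM in Pea3 TKO. The groups did not overlap, and the mean was 1.45-fold higher (log2 fold change 0.53 ± 0.15, adjusted p = 0.026). The call was lost without Control sample 2 or 3 (adjusted p = 0.088 and 0.11) and without Pea3 TKO sample 1 or 2 (0.056 and 0.095). Without both of these Pea3 TKO samples the log2 fold change was 0.36 (adjusted p = 0.31). Ccnd3 shares 361 exonic bases with Bysl on the opposite strand, and whether the counting used strand is not given in the sources used here. Bysl went the other way, from 140 to 76.7 CPM (log2 fold change −0.87, adjusted p = 0.014). Ccnd1 overlaps Oraov1 in the same manner over 1100 bases, and Oraov1 was at 23.2 and 26.3 CPM.

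One start site of Ccnd3 lies inside the longer gene span of chr17:47505051-47599691, and its window held the only ETS sequence among the 6 members with a promoter. The sequence searched was CCGGAA on both strands, a common form of the site of ETS factors such as the Pea3 family. It was found in 12.0% of all windows but in 21.0% of those of tested genes. Counted by gene, 25.03% of the 9732 tested genes with a promoter held one, against 16.7% of the 6 members. The stretch is chr17:47593302-47593361 on the plus strand, with the match in capitals 138 bases before the start site.
Ccnd3: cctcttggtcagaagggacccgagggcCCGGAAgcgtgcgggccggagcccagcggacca

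To compare levels between genes, CPM values were divided by the exonic length of each gene. In Control, Ccnd2 was the highest member at 137 ± 5.02 CPM per kb, followed by Myc (91.7 ± 6.16), Ccnd1 (55.03 ± 30.9) and Ccnd3 (37.8 ± 6.04), and the ranges of neighbours among the last 3 overlapped. Max (12.1 ± 4.70) and Mxi1 (8.03 ± 1.0) overlapped each other, and Mxd1 (2.42 ± 0.67), Mycn (2.08 ± 0.60) and Mxd4 (1.12 ± 0.63) formed the low end, again with overlapping neighbours. In Pea3 TKO, Ccnd1 (158 ± 52.9) and Ccnd2 (123 ± 14.9) overlapped at the top, Ccnd3 (54.6 ± 6.69) and Myc (48.6 ± 11.8) overlapped below them, and Mxi1 (12.1 ± 1.32) stood apart from both neighbours. Max (6.87 ± 2.46), Mycn (6.47 ± 1.68) and Mxd1 (5.33 ± 1.14) overlapped, and Mxd4 (2.16 ± 0.81) was again the lowest. With the longest transcript as the length in place of all exons, Ccnd3 was above Ccnd1 in Control, at 85.9 against 69.3 CPM per kb, and Mxd1 above Mycn in Pea3 TKO, at 8.08 against 7.98.

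**Figure D2:**
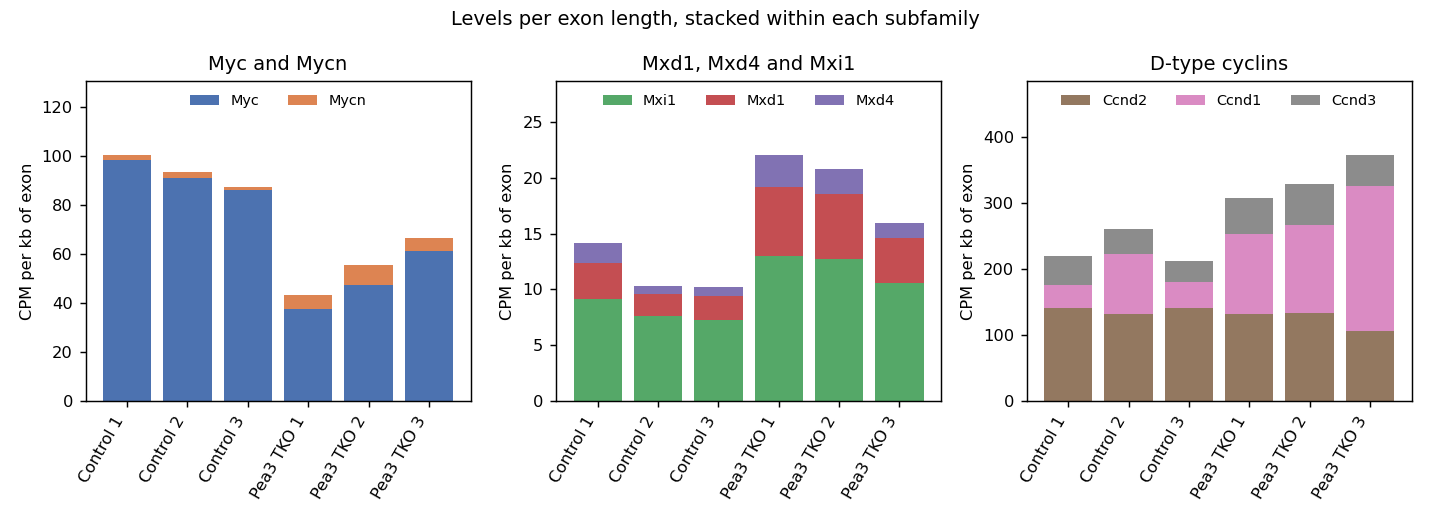
Levels per kb of exon in each library, stacked within the activators Myc and Mycn, the antagonists Mxd1, Mxd4 and Mxi1, and the D-type cyclins (linear axes from 0, 1 bar per library). The activator bars are shorter in all 3 Pea3 TKO libraries with a larger Mycn part, the antagonist bars are taller, and the Ccnd1 part of the cyclin bars is larger.

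Summed within subfamilies, Myc and Mycn together were at 100, 93.4 and 87.3 CPM per kb in Control and at 43.2, 55.7 and 66.3 CPM per kb in Pea3 TKO, and these sums did not overlap. Mycn made up 1.60% to 2.71% of that sum in Control and 8.06% to 15.1% in Pea3 TKO. The 3 antagonists summed to 14.2, 10.3 and 10.2 CPM per kb in Control and to 22.1, 20.8 and 15.9 CPM per kb in Pea3 TKO. The ratio of the antagonist sum to the activator sum was 0.141, 0.110 and 0.117 in Control and 0.511, 0.374 and 0.240 in Pea3 TKO, with the lowest Pea3 TKO value, that of sample 3, above all Control values. The antagonist sum covers these 3 genes only and leaves out Mxd3, Mnt and Mga of the wider network. Their estimates of −0.38, 0.27 and 0.22 did not pass, and the Mxd3 groups did not overlap, with Pea3 TKO lower. The activator sum leaves out Mycl, the third MYC-type activator, which was higher in Pea3 TKO. With Mycl added the activators were at 118, 105 and 98.2 CPM per kb in Control and at 74.8, 92.4 and 90.6 in Pea3 TKO, again without overlap, and the ratio was 0.12, 0.0985 and 0.104 against 0.295, 0.225 and 0.176. In CPM not divided by length, where the longer Mycl weighs more, the sums of the 3 genes overlapped, at 346, 300.5 and 282 CPM in Control and 248, 304 and 281 CPM in Pea3 TKO. The D-type cyclin sum was 212 to 260 CPM per kb in Control and 307 to 373 CPM per kb in Pea3 TKO. Within it the Ccnd1 share went from 15.8% to 34.9% in Control to 39.5% to 58.6% in Pea3 TKO, and the Ccnd2 share from 50.7% to 66.1% to 28.5% to 42.7%, whereas the Ccnd3 share overlapped at 14.4% to 20.0% and 12.9% to 18.7%.

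Whether paralogs moved by different amounts was tested on the log2 ratio of their CPM within each library, for 7 pairs, with an exact two-sided permutation test that cannot go below 0.10 with 3 samples against 3. The Mycn over Myc ratio was −5.66 to −4.89 in Control and −3.23 to −2.21 in Pea3 TKO, a difference of 2.59 (exact p = 0.10, adjusted p = 0.17). Ccnd2 over Ccnd1 differed by −1.77 between groups that did not overlap, and Ccnd3 over Ccnd2 by 0.70 (exact p = 0.10 each). Mxi1 over Mxd1 differed by −0.55 (exact p = 0.10), with the ratio of every Pea3 TKO library below those of all Control libraries. The other 3 pairs had overlapping ratios: Ccnd3 over Ccnd1 differed by −1.07 (exact p = 0.30), Mxi1 over Mxd4 by −0.40 (exact p = 0.40) and Mxd4 over Mxd1 by −0.15 (exact p = 0.70).

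Most listed targets of MYC were lower in Pea3 TKO. In a list of 40 genes known as targets in many cell types, chiefly of ribosome biogenesis, translation, one-carbon metabolism and amino acid transport, 29 (72.5%) passed as lower against 11.3% of all genes tested, and none passed as higher by the edgeR quasi-likelihood test, by DESeq2 or by limma-voom, nor at an unadjusted p under 0.05. Estimates were below 0 for 39 of the 40 genes, against 49.2% of all genes tested, with a median log2 fold change of −0.71. The exception was Ldha, lactate dehydrogenase A, at 1993 to 2235 CPM in Control and 2155 to 2771 CPM in Pea3 TKO (log2 fold change 0.24, adjusted p = 0.20). With Pea3 TKO sample 1 left out, 39 of the 40 were again below 0, and 1 target passed as higher. The list was not chosen independently of earlier results of these data, so its direction is a description.

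**Figure D3:**
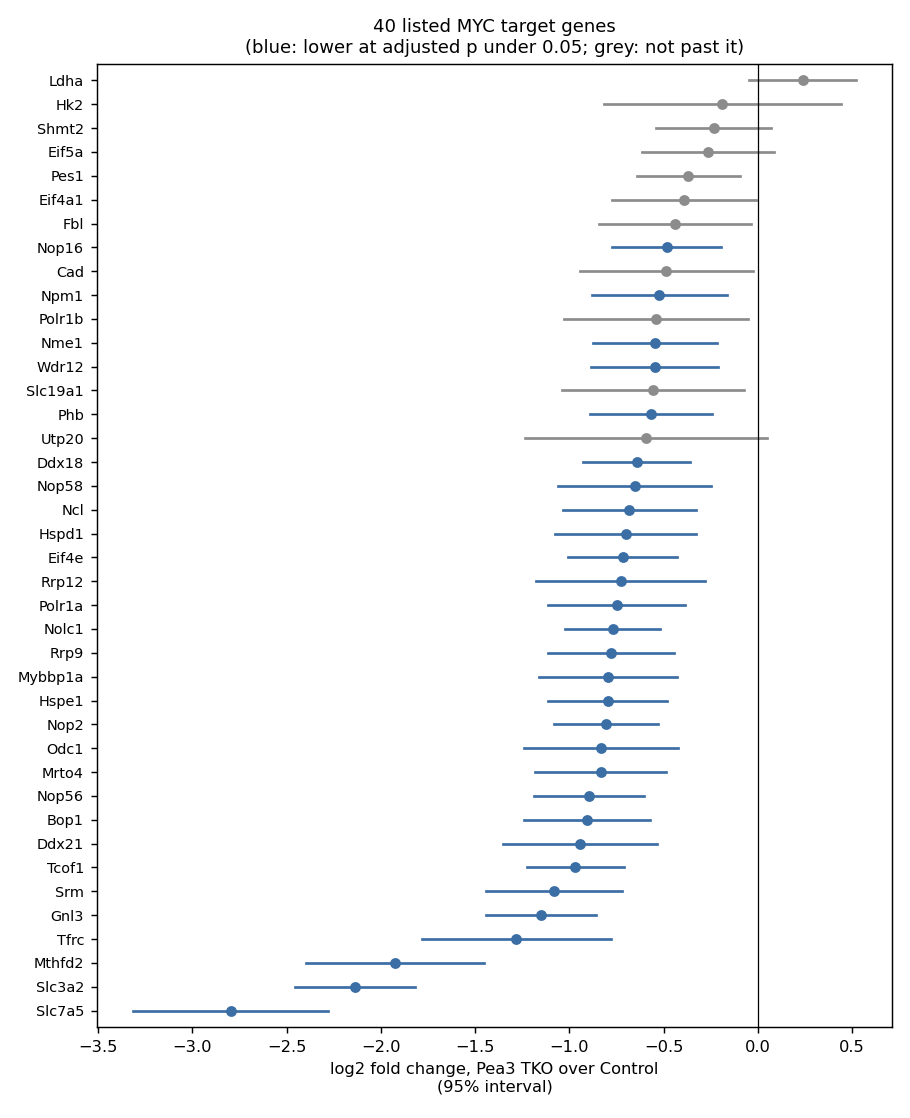
Log2 fold change of Pea3 TKO over Control for the 40 listed MYC target genes (points) with 95% intervals (lines), blue where lower at an adjusted p under 0.05 and grey otherwise. All points but Ldha lie left of 0, and Slc7a5, Slc3a2 and Mthfd2 lie farthest left, between −2.80 and −1.92.

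The targets with the smallest p were a transporter pair and an enzyme of mitochondrial folate metabolism. Slc3a2, the heavy chain of the LAT1 amino acid transporter, was at 995, 1176 and 994 CPM in Control and at 207, 237 and 276 CPM in Pea3 TKO (log2 fold change −2.14 ± 0.14, adjusted p = 2.1e-05). Slc7a5, its light chain, was at 1427, 1971 and 1970.1 CPM in Control and at 173, 278 and 321 CPM in Pea3 TKO (−2.80 ± 0.23, adjusted p = 7.3e-05). Both transporter genes were thus several-fold lower in each Pea3 TKO library. Mthfd2 went from 82.6 ± 6.44 to 21.7 ± 6.03 CPM (−1.92 ± 0.21, adjusted p = 0.00036). Without Pea3 TKO samples 1 and 2, the log2 fold changes of Slc3a2, Slc7a5 and Mthfd2 were −1.93, −2.47 and −1.68. Over the 40 targets the median was then −0.44, with 36 of 40 below 0, resting on 1 Pea3 TKO library.

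Among the 33 targets with a promoter sequence, 8 genes held an E-box and 11 an ETS match, that is 24.2% and 33.3%, where 10.1% and 25.03% of the 9732 tested genes with a promoter did. Of the 23 among them that passed as lower, 5 held an E-box (21.7%) and 8 an ETS match (34.8%), near the shares of the whole list. Nop2, a nucleolar rRNA methyltransferase gene picked for display after its values were seen because both sequences lie close together, went from 232 ± 13.3 to 133 ± 16.1 CPM (log2 fold change −0.81, adjusted p = 0.0018). Nop58, a core protein of box C/D snoRNPs picked in the same way for its pair of ETS matches, went from 336 to 213 CPM (−0.65, adjusted p = 0.027). The stretches are chr6:125131796-125131877 and chr1:59684853-59684941, both on the plus strand, with E-box and ETS matches in capitals and no overlap between matches.
Nop2: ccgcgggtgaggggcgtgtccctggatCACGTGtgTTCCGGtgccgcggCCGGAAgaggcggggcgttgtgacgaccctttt
Nop58: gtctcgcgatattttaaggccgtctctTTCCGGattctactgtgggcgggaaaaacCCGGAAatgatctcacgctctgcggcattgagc

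In the wider MAX and MLX network of 8 further genes, 1 was higher and 1 was lower, that is 12.5% each, near the 13.6% and 11.3% of all genes tested. Mycl (listed as Mycl1), the third MYC-type activator, was at 71.6, 45.2 and 43.9 CPM in Control and at 128, 148 and 98.1 CPM in Pea3 TKO, without overlap (log2 fold change 1.22 ± 0.22, adjusted p = 0.0040). Its direction was that of Mycn, and opposite to that of Myc. Mlxip, which encodes the glucose-responsive factor MondoA, fell from 93.1 ± 23.3 to 56.0 ± 9.40 CPM (−0.73 ± 0.20, adjusted p = 0.023). Without Pea3 TKO samples 1 and 2 neither passed (Mycl 0.89, adjusted p = 0.14, and Mlxip −0.49, adjusted p = 0.39). Mxd3, which had the next smallest p, had an estimate of −0.38 (adjusted p = 0.22).

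Of 10 co-activators of MYC, Ruvbl1, Wdr5 and Ruvbl2 were lower, by modest amounts (log2 fold changes of −0.52, −0.43 and −0.48), and the other 7 did not pass. Ruvbl1 and Ruvbl2 encode ATPases of the TIP60 and INO80 complexes, and Wdr5 a chromatin scaffold bound by MYC. Of 6 co-repressors used by MXD proteins, the deacetylase gene Hdac2 (−0.41) and Sap30, a SIN3 subunit gene (−0.51), were lower, while Sin3b had an estimate of 0.37 that did not pass (adjusted p = 0.063). Among 9 genes of MYC turnover, Usp28, a deubiquitinase that opposes FBXW7, rose from 27.6 ± 1.24 to 49.3 ± 9.32 CPM (0.83 ± 0.18, adjusted p = 0.0086). The deubiquitinase gene Usp36 (−0.60) and the ligase gene Skp2 (−0.54) were lower. Together 7 of these 25 genes were lower and 1 was higher, against 11.3% and 13.6% of all genes tested. The medians of the 3 lists were −0.21, −0.24 and −0.24. Without Pea3 TKO samples 1 and 2, none of the 25 passed by the edgeR quasi-likelihood test, and 1 of them was under an unadjusted p of 0.05.

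**Figure D4:**
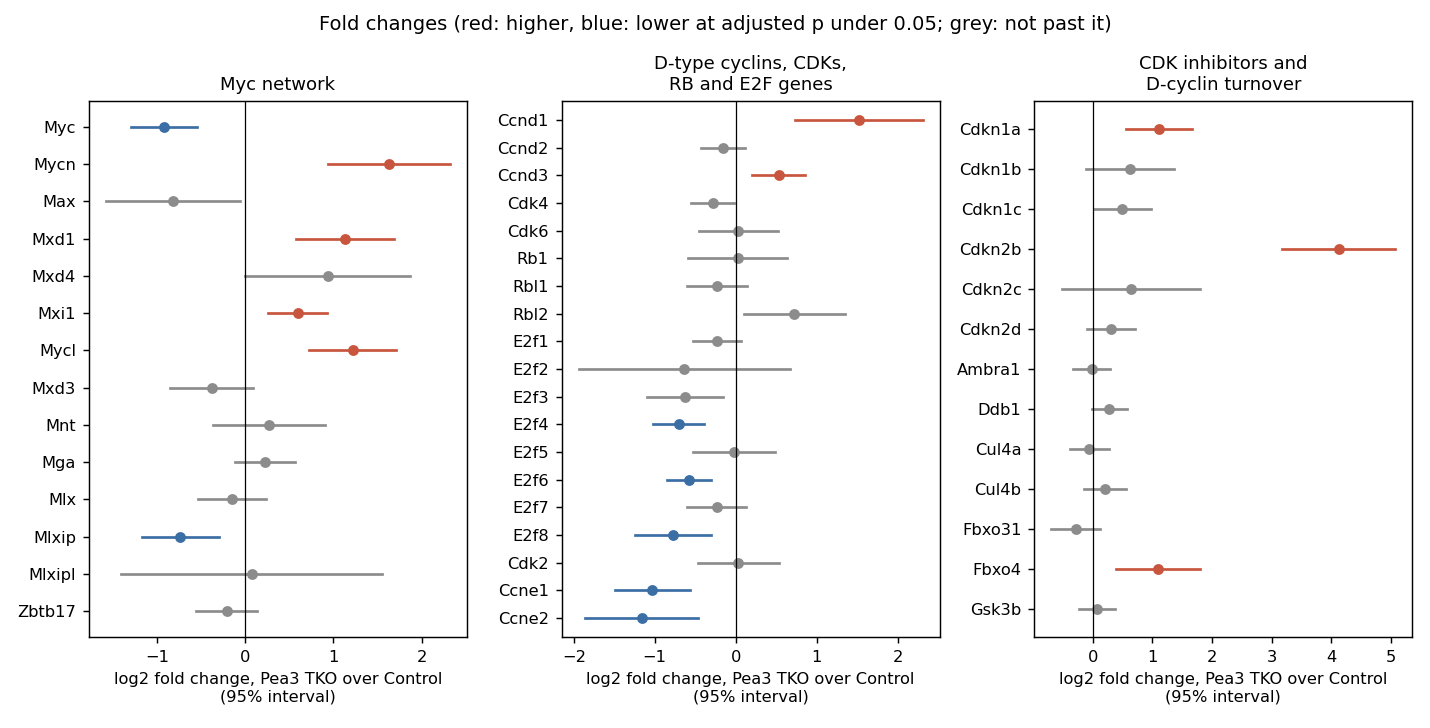
Log2 fold changes of Pea3 TKO over Control (points) with 95% intervals (lines) for genes of the Myc network, for D-type cyclins with CDK, RB and E2F genes, and for CDK inhibitors with genes of D-type cyclin turnover, in red where higher and blue where lower at an adjusted p under 0.05. Mycn and Mycl lie right of 0 and Myc left of it, and Cdkn2b lies farthest right at 4.12.

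Downstream of the D-type cyclins, 5 of 16 CDK, RB and E2F genes were lower, against 11.3% of all genes tested, and the other 11 did not pass. Without Pea3 TKO samples 1 and 2, none of the 16 passed by the edgeR quasi-likelihood test, and 4 were lower at an unadjusted p under 0.05. Ccne1, cyclin E1, which acts after cyclin D at the entry into S phase, was at 149, 110 and 147 CPM in Control and at 46.1, 74.7 and 77.8 CPM in Pea3 TKO (log2 fold change −1.03 ± 0.21, adjusted p = 0.0066). E2f4 (−0.70) and E2f6 (−0.58), both repressors among the E2F factors, were lower, as were Ccne2 (−1.16) and E2f8 (−0.77), which were named after their values were seen. Ccne1 thus went the other way from Ccnd1. The list median was −0.26, and Cdk4, the main catalytic partner of D-type cyclins, was at 1456 ± 32.9 and 1194 ± 131 CPM without passing (−0.29).

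The CDK inhibitors lay on the other side of 0. Estimates were above 0 for all 6 tested inhibitor genes, with a median of 0.63, where 49.2% of all genes tested were below 0. As higher, 2 passed, against 13.6% of all genes tested. Cdkn2b, which encodes p15INK4B, an inhibitor of CDK4 and CDK6, was at 1.86, 0.81 and 0.65 CPM in Control and at 21.0, 16.4 and 21.3 CPM in Pea3 TKO. The groups were far apart relative to their spread, with a mean 17.4-fold higher (log2 fold change 4.12 ± 0.43, adjusted p = 0.00025), and the call remained without Pea3 TKO samples 1 and 2 (4.26, adjusted p = 0.016). Cdkn1a, encoding p21CIP1, went from 49.3 ± 17.8 to 107 ± 13.7 CPM (1.11 ± 0.25, adjusted p = 0.011), a call lost without Pea3 TKO samples 1 and 2 (1.22, adjusted p = 0.12). Cdkn1c, the p57KIP2 gene, had the next smallest p but did not pass (0.50, adjusted p = 0.12), and its estimate was −0.07 without Pea3 TKO samples 1 and 2. Of 7 genes for the turnover of D-type cyclins, 1 passed as higher (14.3%), near the 13.6% of all genes tested. It was Fbxo4, an F-box protein gene linked to cyclin D1 degradation, which rose from 8.03 ± 3.08 to 17.2 ± 2.03 CPM. Its log2 fold change was 1.10 ± 0.32 (edgeR quasi-likelihood test, adjusted p = 0.031), and 1.04 without Pea3 TKO samples 1 and 2. Ddb1 (0.28) and Fbxo31 (−0.29) did not pass.

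Of 15 proliferation genes, 3 were lower, against 11.3% of all genes tested, and the list median was −0.25. Mki67, the Ki-67 gene, was at 215, 347 and 298 CPM in Control and at 201, 126 and 142 CPM in Pea3 TKO (−0.88 ± 0.21, adjusted p = 0.014). Rrm2, the regulated subunit of ribonucleotide reductase, was lower (−0.90 ± 0.23, adjusted p = 0.019), and so was Cdk1, the mitotic kinase (−0.48 ± 0.15, adjusted p = 0.047). Estimates of all 15 genes were below 0, against 49.2% of all genes tested. This direction did not hold in every library. In Pea3 TKO sample 3, Pcna (180.3 CPM), Mcm6 (465 CPM) and Ccnb2 (186 CPM) lay above every Control sample. For Pcna the margin was narrow, with Control sample 3 at 179.4 CPM. Mcm6 was also above every Control sample in Pea3 TKO sample 2 (484 CPM). The sum of the 15 genes was 4751 CPM in Pea3 TKO sample 3, below the Control range of 5045 to 5279 CPM. Without Pea3 TKO samples 1 and 2, none of the 15 passed by the edgeR quasi-likelihood test, 2 were lower at an unadjusted p under 0.05, and Mki67 was at −1.01 (adjusted p = 0.10).

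**Figure D5:**
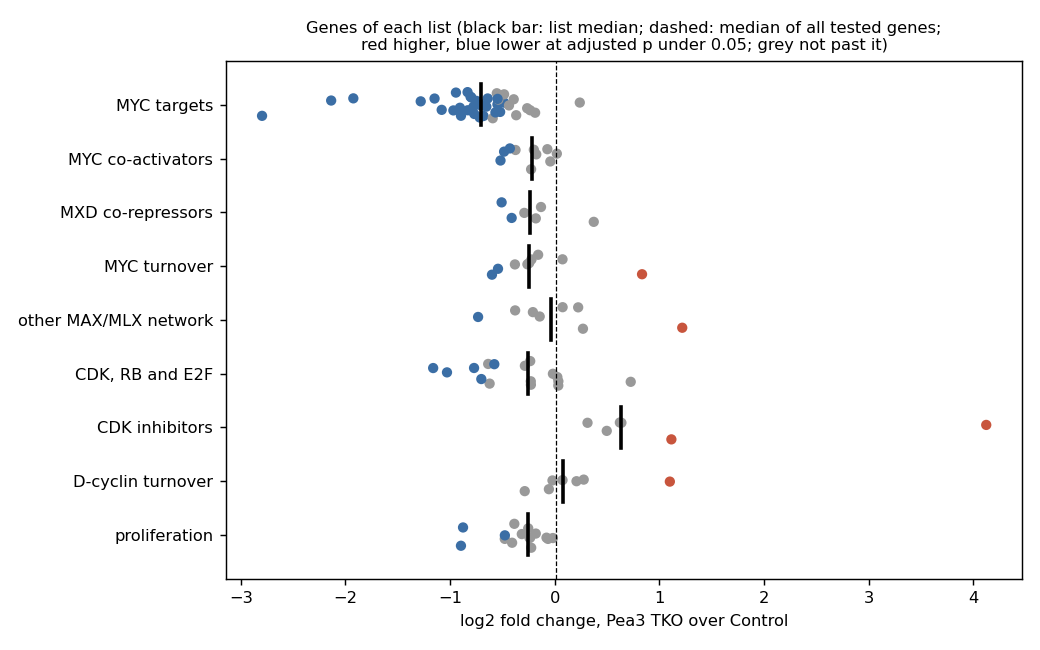
Log2 fold change of each tested gene (points) in the lists around the Myc network and the D-type cyclins, 1 row per list, red where higher and blue where lower at an adjusted p under 0.05, with the list median as a black bar and the median of all tested genes as a dashed line. The median of the MYC targets is the lowest at −0.71 and that of the CDK inhibitors the highest at 0.63.

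For 5 members the genes with the most similar levels were ranked by Pearson's r of log2(CPM + 1) over the 6 libraries, which fall into both groups and share their depth, among 11345 genes with a mean count of at least 50. Smyd5, Rps6kb1 and Mamld1 followed Myc most closely (r = 0.997 each). For Mycn these were 2610002M06Rik (0.998), Fuom (0.997) and Akr1b10 (0.996). Rhoa (0.992), Prelid1 (0.988) and Tmem60 (0.984) followed Ccnd1. None of the 3 passed the test, with log2 fold changes of 0.36, 0.19 and 0.19, and r does not measure the size of a change. Mrps31 and Itgb1bp1 (0.9997 and 0.999) and Prkar2b (0.985) followed Ccnd2. The genes most like Ccnd3 were Scnn1g (0.995), Col17a1 (0.994) and Pcdhgb6 (0.993). Of these, Scnn1g, an epithelial sodium channel subunit gene, rose from 4.10 to 35.6 CPM (3.10, adjusted p = 0.013), and Col17a1, a hemidesmosomal collagen gene of stratified epithelia, rose from 86.1 to 213 CPM (1.303, adjusted p = 0.0067). The values are descriptions over 6 points.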

How the data were processed

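RNA was amplified (Nugen Ovation V2) and sequenced on a HiSeq2500. Per the labels' processing notes, the authors used bcl2fastq 2.17, STAR 2.5.2b, featureCounts 1.5.0-p3 and DESeq with mm10, and deposited raw counts per gene symbol, 1 table per sample. The labels give Le-Cre for all Control samples, while the study's methods also allow heterozygous alleles in controls. The annotation and the strand setting are not given in the sources used here. From these counts, genes were filtered by filterByExpr, normalized by TMM and tested with the edgeR 4.0.16 quasi-likelihood test (R 4.3.3), condition being the only term, with Benjamini-Hochberg adjustment over 13087 genes. SE is the absolute log2 fold change over the square root of F. DESeq2 1.42.0 and limma 3.58.1 (voom) served as alternatives. Exonic lengths and positions came from GENCODE M21 (GRCm38) and promoter windows from RefSeq. Scripts were tested on simulated data. The members and lists were chosen with earlier results of these data known. The rule for genes named beyond the members took the 3 of smallest p per list and the 3 most similar to each of 5 members. Others, such as genes that overlap a member, exceptions within a list, examples with a promoter shown and markers, were named after their values were seen. No protein sequence was used here. Of the lists, 3 genes are not reported here. Replicate samples differed by more than sampling noise (chi-square per degree of freedom of at least 13.8), and intervals cover the spread between samples.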

Additional observations from a re-analysis of the deposited data

How the results depend on the processing

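The same 6 members passed under DESeq2, RLE or upper-quartile factors, either filter and limma-voom, and all 9 members kept their sign in every alternative fit. A covariate for Y-linked transcripts, which leaves the contrast resting almost wholly on Pea3 TKO sample 3, gave 865 genes (538 higher, 327 lower), 1 member (Ccnd1; 1 higher, 0 lower) and 8 MYC targets lower. An alternative chosen after seeing the data, the 4 libraries with Y-linked transcripts, gave 597 genes (315 higher, 282 lower), 0 members (0 higher, 0 lower) by the edgeR quasi-likelihood test, 4 members being under an unadjusted p of 0.05, and 8 targets lower, with fewer samples by construction. An adjusted p under 0.01 gave 1426 genes (846 higher, 580 lower), 3 members (2 higher) and 19 targets lower. Leaving out each library in turn gave 1948 to 3344 genes (1131 to 1948 higher, 799 to 1417 lower), 3 to 8 members (2 to 6 higher, 1 to 2 lower), 20 to 34 targets lower and 0 to 1 higher. The 1 higher target was found without Pea3 TKO sample 1. The fewest members (Myc, Mycn and Mxd1) passed without Control sample 3, and the most, Max and Mxd4 included, without Control sample 1.

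Reversals of sign were examined for the members, the genes named by the rule and the paralog ratios, not for every listed gene. Of the 40 MYC targets, 39 were below 0 in the fit with condition alone. With the Y-linked covariate 37 were, and with the 4 libraries 36. Among the values examined, signs reversed for the following, none of them past the threshold after the reversal, and the cause was not tested. With the Y-linked covariate and with the 4 libraries, respectively, they were Cdkn1c (−0.067 and −0.074), Uty (0.25 and 0.28), Lum (−0.70 and −0.71) and Fabp7 (0.048 and 0.073). Leaving out 1 library reversed Hbb-y (range −0.11 to 1.61, reversed without Pea3 TKO sample 3), Alas2 (−0.83 to 1.29, without Control sample 3 or Pea3 TKO sample 3), Mitf (−0.42 to 0.42, without Pea3 TKO sample 3), Cd68 (−0.11 to 1.69, without Pea3 TKO sample 1), C1qb (−2.54 to 0.67, without Control sample 1) and the Mxd4 over Mxd1 ratio (−0.29 to 0.062, without Control sample 1).

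The labels number the replicates alike in both groups. Deviations of same-numbered samples correlated at 0.14, −0.06 and 0.05, so the numbers were not shown to pair the samples. In a fit blocked on that number, 3191 genes, 7 members and 32 MYC targets passed, Mxd4 being added (0.99, adjusted p = 0.038). Not every sample correlated best with its own number.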
